A study of Mus musculus with 8 samples.

Results

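The miR-34 family comprises 3 mouse miRNA genes, Mir34a on one chromosome and Mir34b with Mir34c next to each other on another. Each hairpin can give a miRNA from its 5′ arm (5p) and one from its 3′ arm (3p), so the family had 6 possible mature miRNAs. They were followed in 8 small-RNA libraries of NIH-3T3, a line of immortal fibroblasts first grown from mouse embryos. A read was counted for an arm when, after removal of the 3′ adapter, its insert was 16 to 30 nt long and its first 20 bases matched that arm from its main 5′ end. All 6 arms were seen, among 433 mature miRNAs with reads.

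Both experiments used NIH-3T3 cells grown in 10% serum (DCS). In the serum experiment, cells were held without serum for 48 h and received 20% serum. Libraries were made at 0 h (labelled G0), 12 h (G1), 16 h (S), 20 h (G2/M) and 24 h (G1). In the contact inhibition experiment, sparse cultures (12% confluent at plating) were left to fill the dish over 5 days. Its libraries came from day 0 (asynchronous), day 3 (G0) and day 5 (G0). The G0 set therefore had 3 libraries and the other set 5. Each condition was a single library, so the spread behind every p-value is that between single libraries and includes time and phase. The experiment is a term of the main fits below, and its difference remains in the spread of the permutation tests. In RNA from whole cultures, fewer cells with a miRNA and less of it per cell cannot be told apart.

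The tumour suppressor p53 binds and activates the promoters of Mir34a and of the shared Mir34b/Mir34c transcript, and the family is among the best known miRNA targets of p53. Mature miR-34 loads into Argonaute and lowers mRNAs with matches to its seed, among them those of Cdk4, Cdk6, Ccne2, E2f3, Met and Bcl2, and so restrains entry into the cell cycle and cell survival. The 3 hairpins are not equally expressed in the body: miR-34a is found in most tissues, and miR-34b and miR-34c are best known from testis and from epithelia with motile cilia.

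The mature sequences show which products can act alike. They are given 5′ to 3′ from RefSeq (GRCm38.p6), with the seed, bases 2 to 8, in capitals. All 3 arms of the 5′ side carried the seed GGCAGUG.
miR-34a-5p: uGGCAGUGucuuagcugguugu
miR-34b-5p: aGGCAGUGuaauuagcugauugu
Over the first 20 bases, miR-34b-5p and miR-34c-5p were identical at 19 positions. miR-34a-5p matched either of them at 11 when compared position by position without gaps. The printed miR-34b-5p has an extra base near its middle, so a comparison that allows a gap would match more positions. The 3p arms have other seeds: AUCACUA in miR-34b-3p and miR-34c-3p, and AUCAGCA in miR-34a-3p.
miR-34a-3p: aAUCAGCAaguauacugcccu
miR-34b-3p: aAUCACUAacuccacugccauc
miR-34c-3p: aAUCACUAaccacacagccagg
The Mir34b hairpin is shown whole because its arm balance and its 5′ ends differed between libraries, with both arms in capitals.
Mir34b hairpin: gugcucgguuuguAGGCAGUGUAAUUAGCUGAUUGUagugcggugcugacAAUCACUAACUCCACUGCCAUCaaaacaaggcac

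Mir34a (ENSMUSG00000065493.1) lies at chr4:150068454-150068555 on the plus strand of GRCm38, and 17 of its bases overlap the unclassified gene Gm37795, in an exon. Mir34b (ENSMUSG00000065492.1) lies at chr9:51103562-51103645 and Mir34c (ENSMUSG00000065587.1) at chr9:51103034-51103110, both on the minus strand. The Mir34b and Mir34c hairpins are 451 bases apart, and both sit inside an intron of Btg4, a gene of the opposite strand. Within their genes, miR-34a-5p covers chr4:150068473-150068494, miR-34a-3p chr4:150068517-150068537, miR-34b-5p chr9:51103610-51103632, miR-34b-3p chr9:51103574-51103595 and miR-34c-3p chr9:51103044-51103065.

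The libraries held 707202 to 8512472 reads, of which 137585 to 892528 were assigned to miRNAs. The commonest 18 nt and 30 nt inserts of the serum libraries were taken, from their abundance, as marker oligonucleotides. Inserts that shared a run of 12 bases with either were removed. They made up 59.6 to 91.5% of reads in the serum libraries, against at most 0.0351% in the contact libraries. The number of distinct sequences per miRNA was low in 4 of the 5 serum libraries. Among miRNAs with 30 to 300 reads, the median number of distinct inserts was 4, 2, 9, 6 and 5 at serum 0, 12, 16, 20 and 24 h and 8 or 9 in the contact libraries. At serum 12 h all 42 reads of miR-34a-5p were 1 sequence, whereas 144 reads at contact day 0 were 13 sequences. Intervals below are 95% intervals that cover counting error only, and reads without molecular identifiers are not independent molecules. Of 10 epithelial marker miRNAs, 9 had reads (miR-429-3p had none). Levels are counts for each 1000000 miRNA reads (CPM), here and below scaled by the trimmed mean of M-values (TMM) unless miRNA read totals are named. The summed level of the epithelial markers was 2180 CPM at serum 0 h and 0 to 90.3 in the remaining libraries. This gave a G0 range of 89.2 to 2180 and a range of 0 to 86.9 in the other set. Blood markers stood at 132 CPM at serum 0 h and at 0 to 11.3 elsewhere. The part of these marker differences in the serum 0 h values was not tested. The markers of multiciliated cells, miR-449a-5p and miR-449c-5p, were at 0 in every library. The 3 Mir449 hairpins, which share the miR-34 seed, had 0 reads. The fibroblast markers were all present, at 111854 to 589415 CPM. Within the contact series, at day 0, 3 and 5, summed fibroblast markers were at 111854, 130599 and 589415 CPM, the 3 muscle markers at 1032, 223 and 151 (only miR-206-3p had reads) and the 5 pluripotent markers at 141, 87.5 and 15.5 (miR-290a-5p and miR-302a-3p at 0). The part of these differences in the contact values was not tested.

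miR-34c-5p was the most abundant member in every library, and the 5p arms together were at their highest shares in the arrested cultures. Together the 5p arms accounted for 0.464% of the miRNA reads of serum 0 h, then for 0.159%, 0.299%, 0.158% and 0.145% at 12, 16, 20 and 24 h. In the contact series the share was 0.171% at day 0, 0.672% at day 3 and 0.603% at day 5. The 3 G0 libraries thus had the 3 highest shares and did not overlap with the other 5. These are shares of miRNA read totals, by which 3.46% of the 347 miRNAs tested had each G0 library above each other one. By those totals miR-34a-5p alone did not separate, with 617 CPM in the lowest G0 library and 668 in the highest other library. Within the 5p arms, miR-34c-5p took 53.6 to 70.6% of the reads, miR-34a-5p 10.2 to 25.9% and miR-34b-5p 5.39 to 28.1%. The library of asynchronous cells at contact day 0 had both the lowest miR-34b-5p share and the highest miR-34a-5p share.

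miR-34b-5p, from the 5′ hairpin of the shared transcript, had the widest gap between the sets. It had 289, 53, 642, 42 and 41 reads at serum 0, 12, 16, 20 and 24 h, and 30, 827 and 689 reads at contact day 0, 3 and 5. After scaling by the trimmed mean of M-values (TMM), these were 847, 188, 616, 177 and 227 CPM in the serum libraries and 163, 2335 and 2673 CPM in the contact libraries. Each G0 library stood above each of the other 5, with a mean of 1952 ± 971 CPM (SD, n = 3) against 274 ± 193 (SD, n = 5). The 4 lowest libraries, contact day 0 and serum 20, 12 and 24 h, had overlapping counting intervals. Serum 16 h, next in order, lay above them, and serum 0 h lay above serum 16 h (752 to 950 against 570 to 666 CPM). Of all 347 miRNAs tested, 4.03% had each G0 library above each other one, and miR-34b-5p was the 1 of 6 members that did. No member had each G0 library below each other one, a pattern of 4.32% of the miRNAs tested.

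miR-34c-5p, from the 3′ hairpin of the same transcript, had 660, 228, 1429, 183 and 134 reads in the serum libraries and 383, 1622 and 1811 reads in the contact libraries. These counts correspond to 1934, 809, 1372, 772 and 742 CPM in the serum series and to 2081, 4579 and 7025 CPM in the contact series. Means were 4513 ± 2546 CPM (SD, n = 3) in G0 and 1155 ± 579 (SD, n = 5) in the other libraries. The sets overlapped, since contact day 0 was above serum 0 h, though the intervals of those neighbours overlapped too (1878 to 2300 and 1790 to 2087 CPM). This overlap depended on the scaling. With miRNA read totals in place of TMM, the lowest G0 library had 2774 CPM and the highest other library 1601, and the sets separated, as they did for 3.46% of all miRNAs tested under that scaling. The 3 lowest libraries, serum 24, 20 and 12 h, had overlapping intervals.

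miR-34a-5p, the product of the single gene, had 156, 42, 596, 66 and 24 reads in the serum libraries and 144, 493 and 285 reads in the contact libraries. Its levels were 457, 149, 572, 279 and 133 CPM in the serum series and 782, 1392 and 1106 CPM in the contact series. Mean levels were 985 ± 479 CPM (SD, n = 3) in G0 and 383 ± 284 (SD, n = 5) in the others. The sets overlapped: serum 16 h and contact day 0 were both above serum 0 h. The intervals of serum 24 and 12 h overlapped (85.2 to 198 and 107 to 202 CPM), whereas those of the 3 contact libraries did not overlap with each other.

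**Figure D1:**
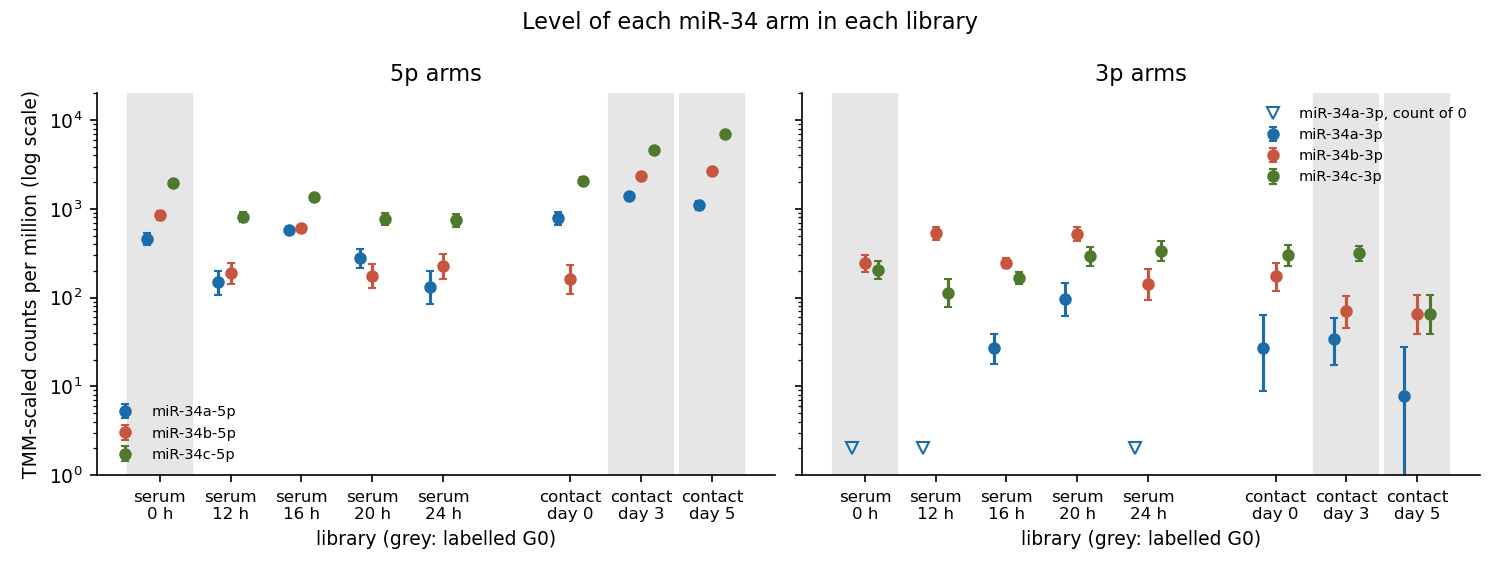
TMM-scaled CPM (log axis) of the 5p arms (left) and the 3p arms (right) in each of the 8 libraries; bars are 95% counting intervals, grey bands mark the libraries labelled G0, and open triangles at the foot mark a count of 0. miR-34b-5p was at 847 to 2673 in the grey bands and at 163 to 616 outside them, while miR-34b-3p was at its lowest, 65.9 and 70.6, at contact day 5 and day 3.

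In edgeR's quasi-likelihood test of the 3 G0 against the 5 other libraries, with the experiment as a term, 0.865% of the 347 miRNAs passed a Benjamini-Hochberg adjusted p of 0.05 (3 miRNAs; 0.576% higher and 0.288% lower in G0), and none of the 6 members did. The median log2 difference over all miRNAs tested was -0.31. miR-34b-5p had the largest difference of the family, log2 2.60 (SE 0.76, adjusted p = 0.156 by edgeR), and stood 6th of the 347 by unadjusted p (0.00269). miR-34c-5p differed by 1.25 (SE 0.50, edgeR adjusted p = 0.349) and miR-34a-5p by 0.68 (SE 0.61, edgeR adjusted p = 0.685). At an unadjusted p of 0.05, 11.2% of all miRNAs passed, and the members that did so were miR-34b-5p and miR-34c-5p. The 3p arms had negative and smaller or less precise differences, of -0.90 for miR-34b-3p (SE 0.77), -0.38 for miR-34c-3p (SE 0.83) and -2.53 for miR-34a-3p (SE 2.97), with edgeR adjusted p between 0.655 and 0.849. The value of miR-34a-3p, which counts its main 5′ end only, ran from -6.62 without contact day 0 to -0.015 without serum 0 h. miR-34b-5p passed by DESeq2's Wald test (log2 2.57, adjusted p = 0.00769), which called 4.55% of the 308 miRNAs it gave an adjusted p. It also passed in edgeR with serum 16 h left out (log2 2.93, adjusted p = 0.0294), where 3.63% of 331 miRNAs were called. With contact day 0 left out its difference was 1.50 (edgeR adjusted p = 0.564).

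**Figure D2:**
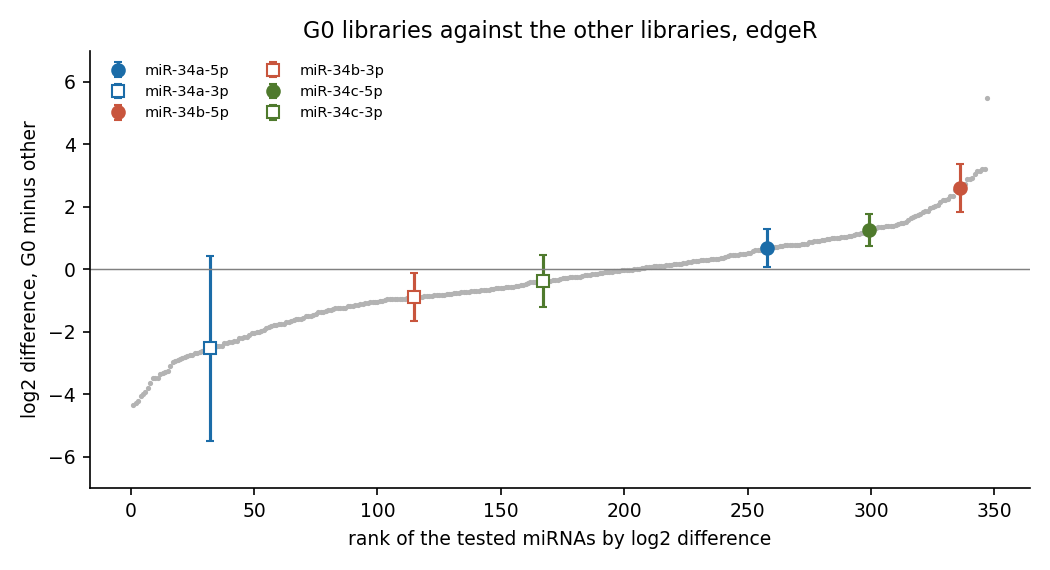
The log2 difference between the 3 G0 and the 5 other libraries for each of the 347 miRNAs tested in edgeR, in rank order (grey points), with the 6 miR-34 arms in colour and their standard errors as bars. The 5p arms lie to the right of the median (0.68, 2.60 and 1.25 for miR-34a, miR-34b and miR-34c), and the 3p arms lie between -2.53 and -0.38.

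The arrest differences of miR-34b-5p and miR-34a-5p were set side by side within each experiment. From contact day 0, miR-34b-5p was 14.3-fold higher at day 3 (interval 9.96 to 21.4) and 16.4-fold higher at day 5 (11.4 to 24.5). A day 3 level of 10 or more times that of day 0 was found for 1.8% of the 167 miRNAs deep enough to compare, and miR-34b-5p was the only member among them. miR-34c-5p was 2.20-fold (1.97 to 2.47) and 3.38-fold (3.02 to 3.78) higher, and miR-34a-5p 1.78-fold (1.47 to 2.16) and 1.41-fold (1.15 to 1.74). Both later days reached 2 times the day 0 level or more in 18% of these miRNAs and in 2 of the members, miR-34b-5p and miR-34c-5p. The 3p arms did not follow: miR-34b-3p was at 0.406 of its day 0 level at day 3 (0.231 to 0.707) and 0.379 at day 5 (0.198 to 0.704), and miR-34c-3p at 1.04 (0.748 to 1.46) and 0.217 (0.118 to 0.379). All contact ratios rest on the same day 0 library, in which miR-34b-5p had 30 reads.

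Between day 3 and day 5, miR-34a-5p was lower, at 0.794 of its day 3 level (0.684 to 0.921), and miR-34c-5p was 1.53-fold higher (1.43 to 1.64). miR-34b-5p was 1.14-fold higher (1.03 to 1.27) by TMM, and this direction turned with the scaling: the log2 ratio was 0.20 by TMM, -0.34 by miRNA read totals and -0.12 by DESeq2 size factors. miR-34c-5p was higher by each of these scalings, with log2 ratios of 0.62, 0.08 and 0.30. By miRNA read totals, however, its counting intervals at day 3 and day 5 overlapped (0.352 to 0.389% and 0.374 to 0.410% of miRNA reads). miR-34a-5p was lower by each, with -0.33, -0.87 and -0.65.

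In the serum series the ratios of miR-34b-5p were smaller than in the contact series, and those of miR-34a-5p and miR-34c-5p were not uniformly so. miR-34b-5p at serum 0 h was 4.50-fold its level at 12 h (3.35 to 6.15), 4.78-fold that at 20 h (3.45 to 6.77) and 3.73-fold that at 24 h (2.68 to 5.31), but 1.37-fold that at 16 h (1.19 to 1.58). miR-34c-5p at 0 h was 2.39-fold, 1.41-fold, 2.50-fold and 2.61-fold its levels at 12, 16, 20 and 24 h. Starved cells exceeded every released library in 22.7% of the 225 miRNAs deep enough to compare, and miR-34b-5p and miR-34c-5p were among them. No member was among the 4% that were at least 2-fold higher than in each. For miR-34a-5p the 0 h library was 3.07-fold above 12 h (2.17 to 4.42), 1.64-fold above 20 h (1.22 to 2.22) and 3.44-fold above 24 h (2.23 to 5.53), and it was below 16 h, at 0.799 (0.666 to 0.955).

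Serum 16 h, labelled S, was the highest released library for each of the 3 5p arms. From the lowest to the highest released library, miR-34a-5p spanned 4.30-fold, miR-34b-5p 3.48-fold and miR-34c-5p 1.85-fold. A span of at least 2-fold was seen in 69.8% of the 225 miRNAs, so the spans of miR-34a-5p and miR-34b-5p did not set them apart. The 16 h library was also the deepest of the serum series, with 892528 miRNA reads, and had a median of 9 distinct inserts per miRNA against 2 to 6 in the other released libraries. The part of this depth in the 16 h values was not tested.

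The interaction of arrest with experiment, which compares the contact with the serum difference, was log2 2.47 for miR-34b-5p (SE 1.26, unadjusted p = 0.0641, edgeR adjusted p = 0.864). For the other 5 arms its edgeR adjusted p lay between 0.864 and 0.998. In edgeR, 0% of all miRNAs passed for this term after adjustment, and 14 (4.03%) had an unadjusted p under 0.05.

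Ratios within a library need no scaling between libraries. They set the shared transcript against the single gene by 5p reads from the main 5′ ends only. The 3p reads, such as the 30 of Mir34a that start 1 base upstream at serum 24 h, are not counted. The reads of miR-34b-5p plus miR-34c-5p over those of miR-34a-5p came to 6.08, 6.69, 3.47, 3.41 and 7.29 at serum 0, 12, 16, 20 and 24 h. In the contact series the ratio was 2.87 at day 0 (2.37 to 3.49), 4.97 at day 3 (4.51 to 5.48) and 8.77 at day 5 (7.76 to 9.95). The 5p reads of the shared transcript were thus at least 2.87 times as many as those of Mir34a in every library. The ratio was higher at each later day of contact inhibition. In the serum series there was no such order: the ratio at 0 h lay between those of the released libraries. Over all 8 libraries the G0 set was higher by 0.55 on the log2 scale, which did not exceed the spread between libraries (exact permutation test over the 56 splits, 2-sided p = 0.232, adjusted over the 3 ratios p = 0.348). The smallest p this design allows is 0.0179. Of miR-34c-5p over miR-34a-5p the difference was 0.35 (exact permutation p = 0.393, adjusted p = 0.393).

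The 2 hairpins of the shared transcript did not hold a fixed ratio. miR-34b-5p over miR-34c-5p was 0.438, 0.232, 0.449, 0.230 and 0.306 in the serum libraries in time order. In the contact libraries it was 0.0783 at day 0 (0.0521 to 0.114), 0.510 at day 3 (0.468 to 0.555) and 0.380 at day 5 (0.348 to 0.416). The day 0 value lay below every other library, and the 3 G0 values together with serum 16 h were the 4 highest. The log2 difference between the sets was 0.96 (exact permutation test, 2-sided p = 0.125, adjusted p = 0.348), which does not pass. The arms differ at position 11, counted from 1 at the 5′ end, where 22 of 9085 reads carried a base of neither arm (0.242%, and 0 to 0.524% in single libraries). How often one arm was misread as the other was not tested.

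**Figure D3:**
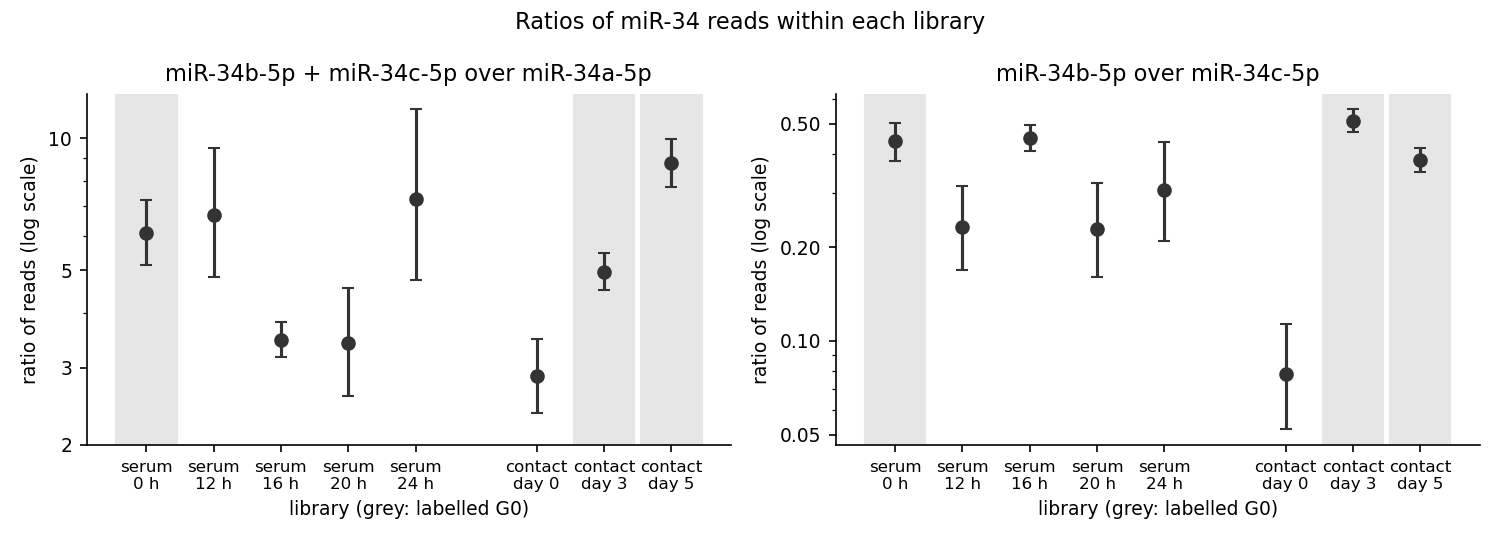
Ratio of reads within each library (log axes) of miR-34b-5p plus miR-34c-5p over miR-34a-5p (left) and of miR-34b-5p over miR-34c-5p (right); bars are 95% counting intervals and grey bands mark G0. The left ratio runs from 2.87 at contact day 0 to 8.77 at day 5, and the right one from 0.0783 at day 0 to 0.510 at day 3.

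Which arm of Mir34b was the commoner differed between libraries. The 3p arm took 22.5% of the hairpin's reads at serum 0 h, 73.8% at 12 h, 28.4% at 16 h, 74.9% at 20 h and 38.8% at 24 h. In contact inhibition it took 51.6% at day 0, 2.93% at day 3 and 2.41% at day 5. miR-34b-3p was therefore the commoner arm in 3 libraries (149 reads against 53 at 12 h, 125 against 42 at 20 h, 32 against 30 at contact day 0), though the interval at contact day 0 spans an equal share. Those reads of the 3p and 5p arms were 4 and 2 distinct inserts at 12 h, 9 and 2 at 20 h, and 4 and 3 at contact day 0. In the arrested contact cultures it had 25 reads against 827 at day 3 and 17 against 689 at day 5. As ratios of 3p to 5p reads, the G0 values were 0.291 (0.225 to 0.372), 0.0302 (0.0194 to 0.0449) and 0.0247 (0.0143 to 0.0398), and the other libraries lay between 0.397 and 2.98. The serum 0 h and 16 h intervals overlapped (0.342 to 0.460 at 16 h).

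Mir34c kept its 5p arm as the main product in every library, and its 3p arm was also scarcest relative to the 5p arm in G0. The 3p to 5p ratio was 0.106, 0.0691 and 0.00939 at serum 0 h and contact day 3 and 5. It was 0.140, 0.120, 0.377, 0.455 and 0.146 at serum 12, 16, 20 and 24 h and contact day 0. Serum 0 h (0.0817 to 0.136) overlapped in its interval with 12 h and 16 h. For Mir34a, reads of the 3p arm from its main 5′ end were absent at serum 0, 12 and 24 h. At 0 and 12 h the counts of 0 allow up to 1.92% and 7.14% of the reads from the main ends of both arms. At 24 h the arm was present from another end, with 30 reads starting 1 base upstream beside 24 reads of miR-34a-5p. In the remaining libraries the ratio of main-end reads was 0.0470 at 16 h, 0.348 at 20 h and 0.0347, 0.0243 and 0.00702 at contact day 0, 3 and 5.

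For Mir34b and Mir34c, each G0 library had a lower 3p to 5p ratio than each other library. The same held for the rarer to the commoner arm in 6.45% of the 93 arm pairs with enough reads (6 pairs). The remaining 4 were let-7e, miR-369, miR-503 and miR-872, named after their values were seen. The reverse, each G0 library above each other one, was found for 2.15% of the pairs and for no member. The mean log2 ratio in G0 minus that in the other libraries was -4.26 for Mir34b, the 3rd lowest of the 93, and -2.36 for Mir34c (12th), against a median of -0.21. Mir34a was close to Mir34c, at -2.28 (14th). Its sets overlapped, and its value rests on few 3p reads from the main 5′ end. No test was made of these ratios. Over contact day 0, 3 and 5, where the Mir34b ratio was 1.07, 0.0302 and 0.0247, the epithelial markers were at 86.9, 90.3 and 89.2 CPM, and the muscle, pluripotent and fibroblast markers differed as given above. The part of the latter in this ratio was not tested.

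**Figure D4:**
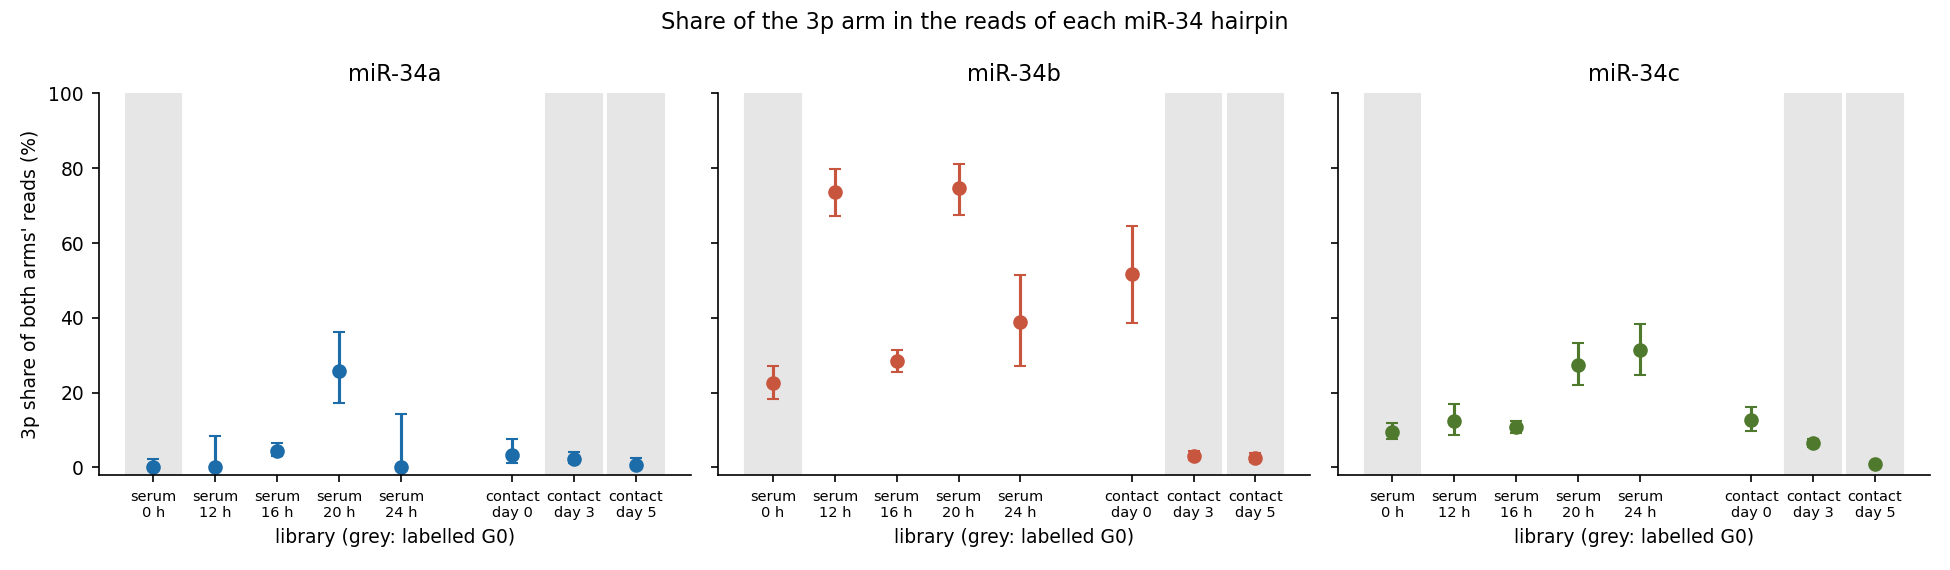
Share of the 3p arm in the reads that start at the main 5′ ends of both arms (%) for each hairpin and library, with 95% binomial intervals and grey bands for G0. The miR-34b share was 2.93 and 2.41% at contact day 3 and day 5 and 22.5% at serum 0 h, against 28.4 to 74.9% elsewhere, and miR-34a was at 0 in 3 serum libraries, in one of which (24 h) 30 reads of its 3p arm started 1 base upstream and are not plotted.

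The 5′ end sets the seed. The main end held 97.2% of 1877 miR-34a-5p reads, 95.2% of 2754 miR-34b-5p reads and 98.9% of 6561 miR-34c-5p reads over all libraries. For miR-34a-5p it held 156 of 189 reads at serum 0 h (82.5%, interval 76.4 to 87.7%) and 96.0 to 100% in the remaining libraries. The form of miR-34b-5p that begins 1 base upstream was the commonest variant among the 5p arms, with 116 reads. It is printed because its seed differs from that of the family.
miR-34b-5p starting 1 base upstream: uAGGCAGUguaauuagcugauug
This form made up 14 of 305 reads at serum 0 h (4.59%), 51 of 710 at 16 h (7.18%), 13 of 55 at 20 h (23.6%, interval 13.2 to 37.0%), 14 of 842 at contact day 3 (1.66%) and 24 of 718 at day 5 (3.34%). It had 0 reads at serum 12 and 24 h and contact day 0, where 53, 41 and 30 reads allow a share of up to 5.66%, 7.32% and 10.0%. Its share therefore followed no order of G0 and other libraries. The 3p arms were less uniform. Of miR-34b-3p, 7.71% of 791 reads began 1 base inside the main end, and of miR-34c-3p 1.47% of 612. Of 119 miR-34a-3p reads, 40.3% began 1 base upstream, and these included all 30 reads at serum 24 h.

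Insert lengths set miR-34a-5p apart from the other two. miR-34b-5p was 23 nt long in 90.2 to 100% of reads in each library, and miR-34c-5p in 81.6 to 97.0%. miR-34a-5p was most often 22 nt long in 7 libraries (47.5 to 100% of reads), with 26.7 to 30.6% at 23 nt in the contact libraries. At serum 12 h all 42 reads were 22 nt, and at 24 h 20 of 24 were 23 nt, in libraries where few distinct inserts were seen.

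**Figure D5:**
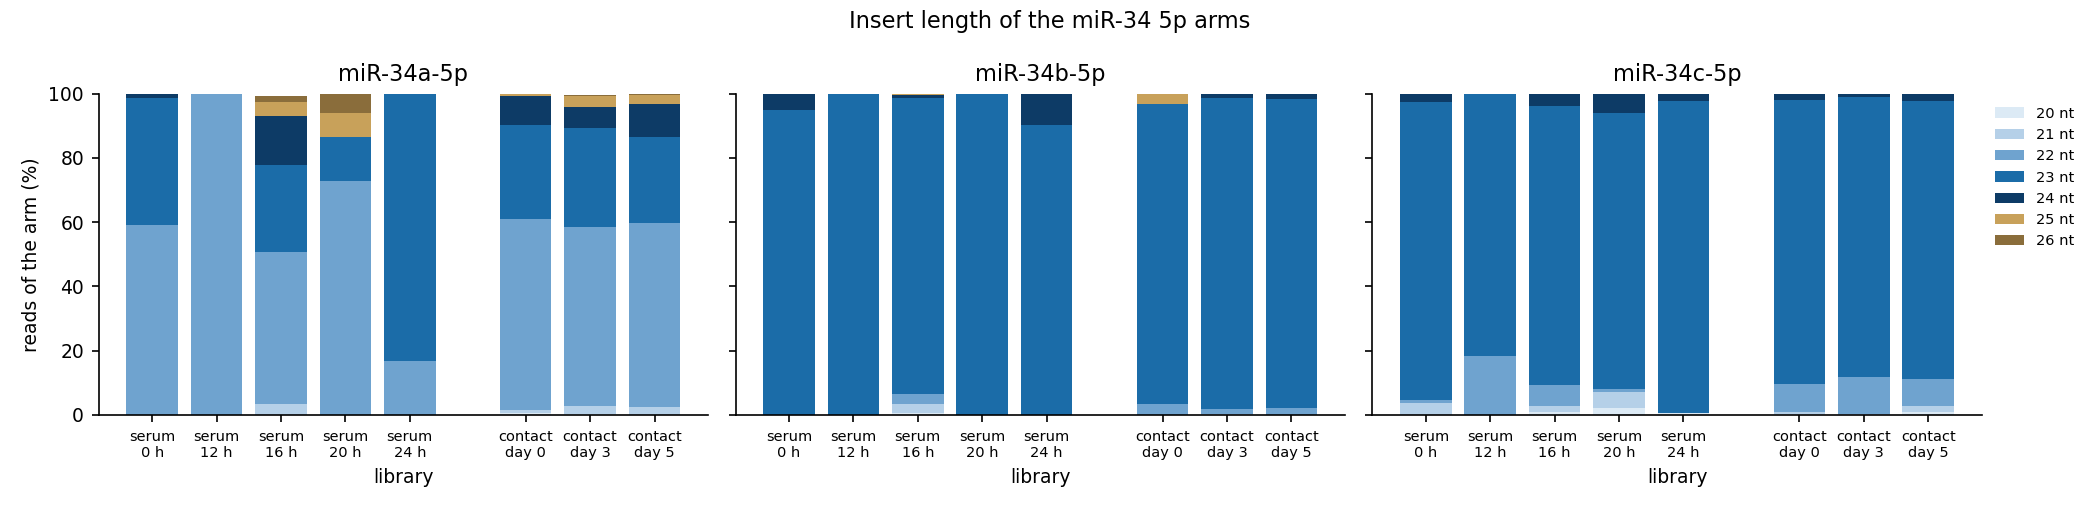
Percentage of each 5p arm's reads at each insert length from 20 to 26 nt (stacked bars) in the 8 libraries. Reads of 23 nt make up 90.2 to 100% of miR-34b-5p and 81.6 to 97.0% of miR-34c-5p, while miR-34a-5p is divided between 22 and 23 nt in the contact libraries.

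Bases that the hairpin does not encode were found at the 3′ ends in unequal amounts. They were present in 1.38% of miR-34b-5p reads (36 of 2613), 5.67% of miR-34c-5p reads (366 of 6450) and 17.2% of miR-34a-5p reads (310 of 1806). The rate of miR-34a-5p differed between serum libraries, at 2.56% at 0 h (0.703 to 6.43%), 27.3% at 16 h (23.8 to 31.1%) and 13.6% at 20 h, with none among 42 reads at 12 h and 24 reads at 24 h (up to 7.14% and 12.5%). In the contact libraries it was 13.2, 13.8 and 16.5% at day 0, 3 and 5, with overlapping intervals. Serum 16 h held 163 of the 310 reads, and 56 of the 85 with added U alone, so the pooled rate rests largely on it. In the contact libraries miR-34b-5p was at 0.967 to 3.33% and miR-34c-5p at 3.33 to 4.80%. The highest pooled rate was in miR-34c-3p, at 37.2% of 589 reads, and 29.7% ended in added A only. At serum 0 h 57 of 70 miR-34c-3p reads (81.4%) ended in added A, and at 12 h 0 of 32 did, which allows up to 9.38%. The 57 reads were copies of 1 sequence, and the library held 3 distinct inserts of this arm.

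The pattern over the 8 libraries was most alike between miR-34a-5p and miR-34c-5p. Pearson's r of log2(CPM + 1) was 0.90 between those, 0.86 between miR-34b-5p and miR-34c-5p and 0.73 between miR-34a-5p and miR-34b-5p. These are descriptions over 8 libraries from 2 experiments, which share depth and scaling. The 5 miRNAs most like miR-34b-5p were miR-19a-3p (0.98), miR-322-5p (0.96), miR-503-5p (0.94), miR-18a-5p (0.94) and miR-29c-3p (0.93). miR-503-5p was one of the 3 miRNAs that passed the edgeR test (log2 3.23, adjusted p = 0.00923). The 5 most like miR-34c-5p were miR-130a-3p (0.96), miR-297-1-5p (0.94), miR-19b-3p (0.91), miR-497a-5p (0.91) and miR-34a-5p (0.90). Closest to miR-34a-5p were miR-297-1-5p (0.96), miR-669b-5p (0.94), miR-669l-5p (0.94), miR-130a-3p (0.93) and miR-181d-5p (0.93), of which the 3 of the miR-297 and miR-669 group were at 0 to 103 CPM. Each 5p arm of the shared transcript ran against its own 3p arm, with r of -0.75 for Mir34b and -0.38 for Mir34c.

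Other miRNAs linked to p53 were compared in the same fit, in which 0.865% of the 347 miRNAs passed and 143 had a positive difference. Of 11 such miRNAs, 8 had reads counted under their own name and 5 could be tested. Of these 5, 2 had a positive difference and 0 passed in edgeR in either direction. Arms with the same first 20 bases were counted under a single name. A miRNA with no count under its own name, such as miR-107-3p, is therefore not shown to be absent. Their median log2 difference was -0.01, against -0.31 over all tested. miR-15a-5p, which targets cyclin D and Bcl2 mRNAs, had a difference of 1.13 (SE 0.63) and its cluster partner miR-16-5p -0.01 (SE 0.41). miR-143-3p differed by 1.01 (SE 0.57) and miR-145a-5p, from the same primary transcript, by -1.04 (SE 0.51). miR-194-5p, at 0 to 66.5 CPM, had -2.36 (SE 2.81). Of 6 miRNAs reported to lower the p53 mRNA itself, 5 were tested, 2 were positive and 0 passed, with a median of -0.05. The largest of these differences was that of miR-33-5p at 2.92 (SE 1.01, edgeR adjusted p = 0.273). The most abundant, miR-125b-5p, was at 32563 to 49358 CPM in the G0 libraries and 55913 to 119270 in the others, a difference of -1.23 (SE 0.39, edgeR adjusted p = 0.18).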

How the data were processed

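The authors deposited 1 table per library of distinct 36 nt reads with their raw counts, with the 3′ adapter still in the reads. How the reads were filtered before deposit is not given in the sources used here. The adapter was removed (at least 6 bases, 1 mismatch per 8), and inserts of 16 to 30 nt were matched by their first 20 bases to arms defined on 1178 mouse hairpins of GENCODE M21. The main 5′ end of an arm was set from reads of 18 to 26 nt pooled over the libraries (at least 10 reads, 50% at that end). Of the 433 mature miRNAs, 339 were named from RefSeq and the rest from their hairpin and arm. The RefSeq set used held no mature entry for miR-34c-5p, so its sequence and position are not printed. miRNAs with at least 10 CPM by miRNA read totals in at least 3 libraries (347) were kept. They were fitted in edgeR 4.0.16 (R 4.3.3) with TMM scaling and the experiment as a term. The p-values were adjusted by Benjamini-Hochberg over all of them. TMM factors were 0.558 to 0.808 in the contact and 1.17 to 1.43 in the serum libraries. Ratios within a library had 0.5 reads added to each count for the log2 scale only. In simulated counts of this comparison, 92 of 200 miRNAs changed 8-fold were found (46%), among 347 miRNAs, with 6 false calls over 10 rounds. The simulated counts had no difference between the serum and contact experiments built in. The named miRNAs were the family's arms, 2 lists linked to p53, and the 5 miRNAs with the highest Pearson's r to each 5p arm. Members and lists were chosen with earlier results of these data known. Intervals are exact binomial (Clopper-Pearson) or conditional binomial. Alternatives were DESeq2 1.42.0, other scalings, filters, match lengths and the omission of each library.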

Additional observations from a re-analysis of the deposited data

How the results depend on the processing

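No paired analysis was possible because each condition is 1 library and the labels carry no replicate numbers. The number of miRNAs called between G0 and the other libraries was 3 in edgeR, 14 by DESeq2's Wald test, 8 without a filter on low counts and 1 without the experiment term. Leaving out a library moved it between 0 and 12: 0 without serum 0 h (21 at an unadjusted p under 0.05) or serum 24 h (20), 1 without serum 20 h or contact day 5, 5 without contact day 3 and 12 without serum 16 h. The cause was not tested. The difference of miR-34b-5p ran from log2 1.50 without contact day 0 (edgeR adjusted p = 0.564) to 4.22 without serum 0 h (0.216). For the other arms the sign stayed the same, and no alternative passed. The day 5 over day 3 ratio of miR-34b-5p turned to log2 -0.34 with miRNA read totals and to -0.12 with DESeq2 size factors; these alternatives differ only in the scaling. The within-library differences kept their sign. Without 1 library they were 0.33 to 0.74 for the 34b plus 34c over 34a ratio. For 34c over 34a they were 0.09 to 0.57, and for 34b over 34c 0.58 to 1.20, none past the threshold. These tests had only 21 or 35 splits against 56 in the main test. Their smallest possible p was therefore larger, and not passing says little. The count of members at least 2-fold higher on both contact days was 2 under each other scaling and with 18 matched bases. That of hairpins with lower 3p to 5p ratios in G0 was 2 with inserts of 18 to 26 nt, with 10 adapter bases, and with matching of whole inserts or of any 5′ end within 2 bases, the last 2 chosen after seeing the data. Depth limits the 3p arm of Mir34a, at 0 to 28 reads.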
